A study of Homo sapiens with 6 samples.

Results

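Molecular chaperones of the HSP and DNAJ families were compared between Hep3B cells given sorafenib and Hep3B cells given solvent, with the genes divided by the compartment in which their proteins work. Members were taken by symbol. The set held every gene whose symbol on the array platform begins with HSPA, HSPB, HSPD, HSPE, HSPH, HSP90, DNAJA, DNAJB or DNAJC, without pseudogenes, together with HSF1, HSF2, BAG3, CHORDC1, CRYAB, STIP1 and AHSA1. Of 79 such genes with a named probe, 60 were measured, meaning that a probe had a detection p-value under 0.01 on at least 3 of 6 arrays. They were 60 of 10598 measured genes. By the known location of their proteins, 31 were placed in the cytosol and nucleus, 13 in the endoplasmic reticulum (ER), 8 in mitochondria and 8 elsewhere. The brightest such probe stood for each gene.

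Hep3B is an established line of human hepatocellular carcinoma cells. The first group received sorafenib, an inhibitor of RAF kinases and of several receptor tyrosine kinases, for 24 h, and the second received only DMSO, its solvent, for 24 h, with 3 arrays in each. The labelled dose is 3 mM, far from the micromolar range usual in culture, and the unit could not be checked. Neither group carries any other labelled agent or allele, and the other cell lines that the design names were not analysed here. The samples are numbered replicates 1 to 3 of each group, and nothing states that they were separate cultures, so p-values describe the spread among these samples, which may be technical.

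Between 16214 and 17380 of 47321 probes were detected per array, and raw median intensities ranged over 106 to 117. Correlation across tested probes was 0.992 to 0.997 within a group, lowest for the third sorafenib array. The cells expressed all 8 hepatocyte and hepatoma markers examined, among them ALB and AFP, on all 6 arrays. None of 3 endothelial markers was detected on any array, while 1 of 4 fibroblast markers (LUM) and 1 of 3 leukocyte markers (CD68) were detected on all 6. The arrays were hybridized with bulk RNA, in which fewer cells making a transcript and less of it per cell cannot be told apart.

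HSP70 chaperones bind unfolded stretches of client proteins in cycles driven by ATP. J proteins, the products of the DNAJ genes, deliver clients and stimulate the ATPase, and nucleotide exchange factors reset the cycle. The cytosol, the ER and the mitochondrial matrix each hold their own HSP70 with its own J proteins. The cytosolic set is controlled by heat shock factors, chiefly HSF1, through heat shock elements in DNA, and the ER set by the unfolded protein response. Liver cells secrete large amounts of protein and carry abundant chaperones in all these compartments.

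Sorafenib-treated cells had lower transcript levels of many cytosolic chaperones and higher levels of a few in mitochondria. In the ER as many members rose as fell in the main analysis, though not under every alternative. Over all 60 measured members, 28 passed an adjusted p of 0.05 (46.7%), 9 higher and 19 lower with sorafenib. Across all measured genes 36.7% passed, 19.7% higher and 17% lower. In the cytosol and nucleus 15 of 31 passed, and 14 of those 15 were lower (45.2% of the 31). CRYAB and HSPA2, among these 14, were undetected on every sorafenib array and passed the detection filter only through the control arrays. Without them 13 of 29 passed, 12 of them lower, and over all members 26 of 58 passed, 17 of them lower. The ER had 4 of 13 past the threshold (30.8%), 2 in each direction. Mitochondria had 4 of 8, with 3 higher and 1 lower. The median log2 difference was -0.25 in the cytosol and nucleus, 0.09 in the ER and 0.14 in mitochondria, against -0.0005 over all measured genes. Signs of the fitted differences were negative for 26 of 31 cytosolic members, 3 of 13 in the ER and 3 of 8 in mitochondria. These compartment lists were not tested as sets.

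**Figure D1:**
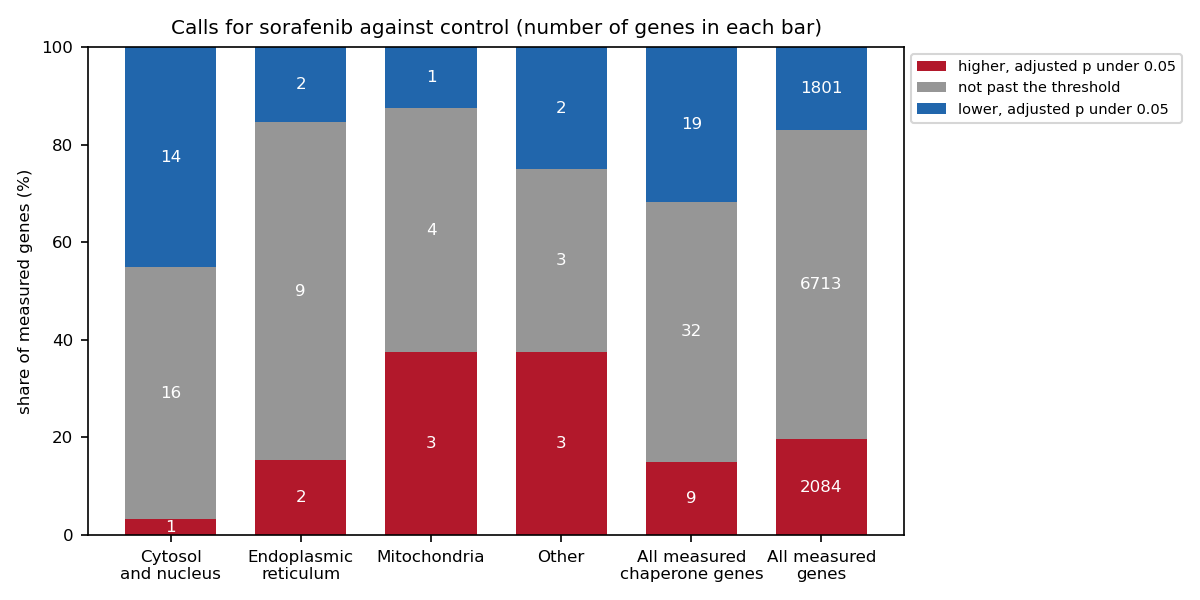
Share of measured genes in each compartment that were higher (bottom), not past the threshold (middle) or lower (top) with sorafenib against control, in percent, with the number of genes written in each bar. The cytosol and nucleus show 1 higher and 14 lower genes of 31, the mitochondria 3 higher and 1 lower of 8, and all 10598 measured genes 2084 higher and 1801 lower. The lower genes of the cytosol and nucleus include CRYAB and HSPA2, which were undetected on every sorafenib array.

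The counts of falling genes were sensitive to the arrays and the scaling. Without the second sorafenib array, 18 members passed, 11 of them lower, and in the cytosol and nucleus 9 passed, 8 of them lower. Calls over all measured genes dropped as well in that run, from 3885 to 2956. Centring each array on the median of all its probes in place of quantile normalization left 12 lower members of 21 past the threshold (57.1% lower, against 67.9%), and made 69.8% of the calls over all genes higher, against 53.6%. Without the third array of both groups, 21 members passed, 6 higher and 15 lower, and 3067 of all measured genes passed.

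The same picture can be followed on single arrays by taking each gene's value minus its mean on the control arrays and then the median over a compartment. For the cytosol and nucleus these medians were -0.22, -0.24 and -0.23 on sorafenib arrays 1, 2 and 3, against -0.01, -0.03 and 0.04 on the control arrays. The sorafenib arrays lay close together and below all the control arrays. Because the control arrays are set against their own mean, these medians restate the same contrast array by array. For the ER they were 0.06, 0.09 and 0.12 with sorafenib, against -0.02, 0.06 and -0.07 in control. For mitochondria they were 0.16, 0.18 and 0.03 with sorafenib, against 0.08, -0.05 and 0.01 in control. In the ER and in mitochondria the ranges of both groups touched or overlapped.

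**Figure D2:**
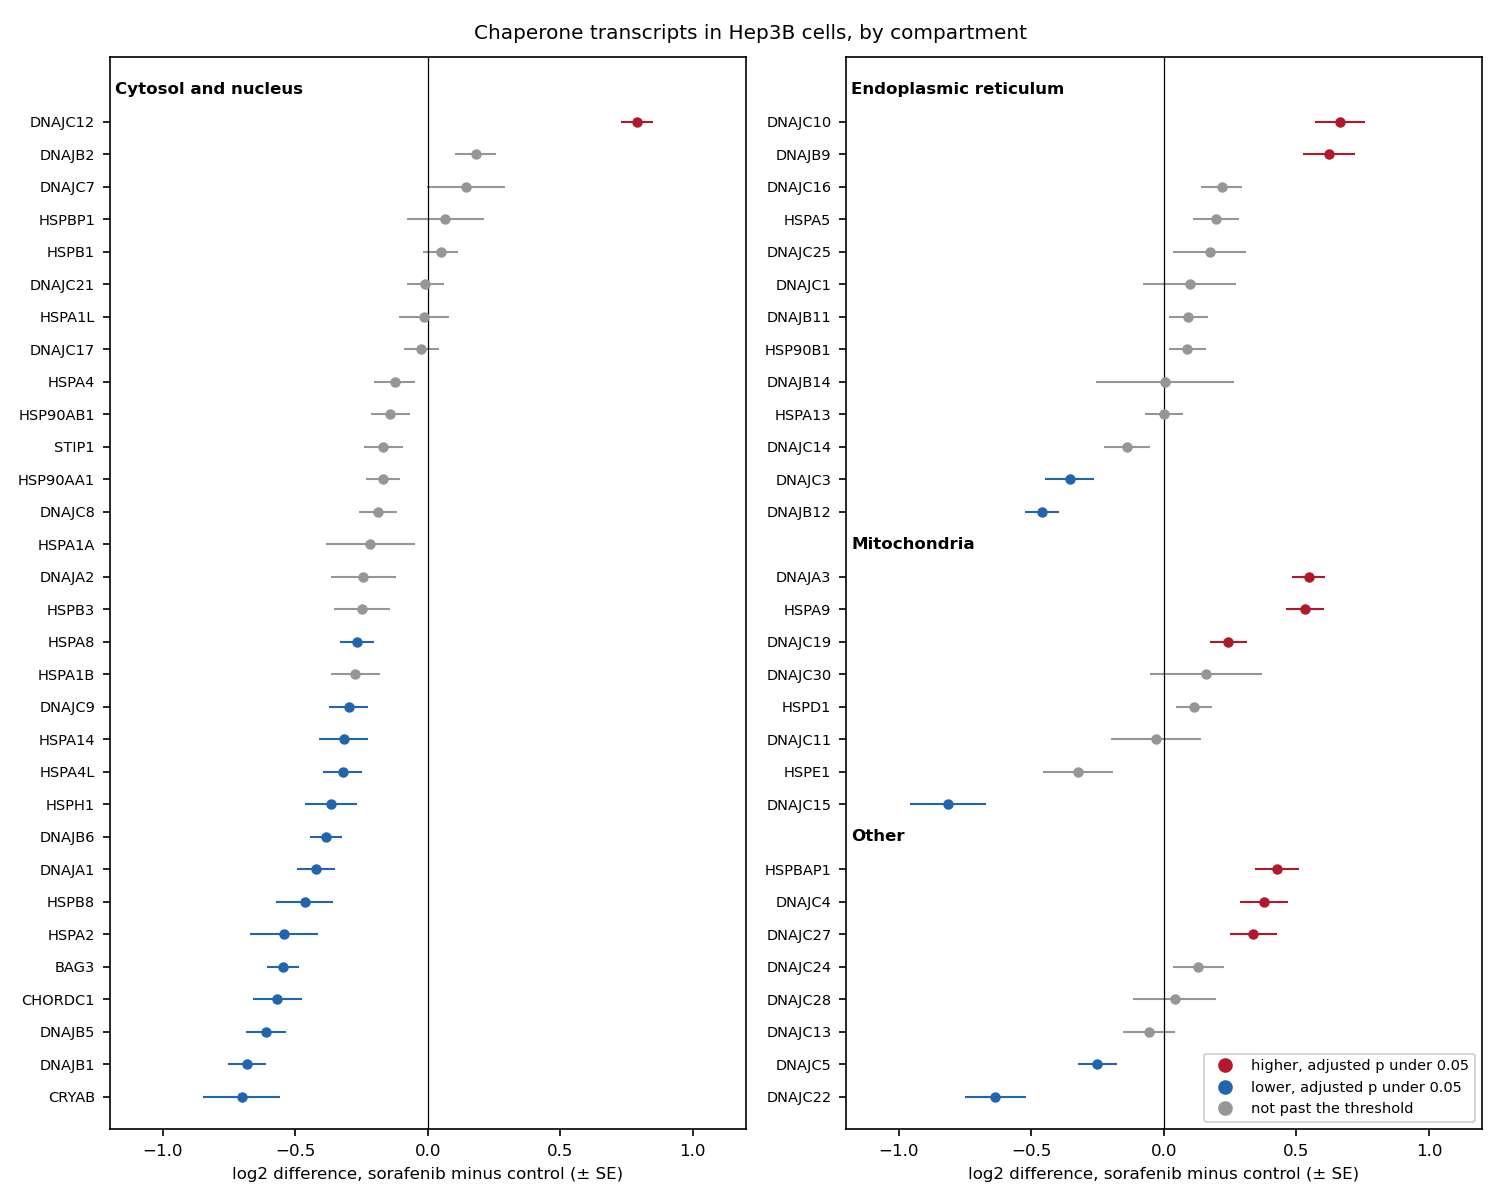
Log2 difference (sorafenib minus control) of each of the 60 measured chaperone genes with its standard error, n = 3 arrays per group, ordered within the cytosol and nucleus, the ER, the mitochondria and elsewhere. Coloured points passed an adjusted p of 0.05. CRYAB and HSPA2, undetected with sorafenib, stand at their fitted values. The cytosolic genes trail to the left down to CRYAB at -0.70, while DNAJC12 stands alone at 0.79.

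The regulators of the cytosolic response could be followed only in part. The HSF1 probe was not detected on any of the 6 arrays, so nothing can be said of its change, and HSF2 and AHSA1 had no named probe. HSPA6, a strictly stress-inducible HSP70, was detected on 1 sorafenib array and on no control array, as was the J protein gene DNAJB4. Both stayed under the detection filter.

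Promoters of the members were read for heat shock elements, which are built of alternating GAA and TTC units. RefSeq promoter windows (GRCh38.p14, from 250 bases before to 50 bases after each annotated start) were available for 55 of the 60 members. The letters GAANNTTCNNGAA, sought on both strands, stood in the windows of 7 of 55 members (12.7%) and in those of 166 of 27305 genes in the table (0.608%). The shorter GAANNTTC, which every match of the longer one contains, stood in 13 members (23.6%) and in 8.21% of all genes. HSPA1A and HSPA1L are neighbours with overlapping windows and share 1 such match. By compartment the longer element was found in 6 of 29 cytosolic and nuclear members, 0 of 12 in the ER and 1 of 8 in mitochondria. A match describes letters in a window and not a site in use. The stretches around the matches are shown because they mark which members hold these exact letters, given in capitals. Elements with other letters or outside the windows were not sought, so a gene without a match may still carry one. Each reads 5′ to 3′ in the direction of the gene. They lie at chr11:90223062-90223134 (minus strand) for CHORDC1, chr9:33025251-33025288 (plus strand) for DNAJA1, chr7:157336848-157336910 (plus strand) for DNAJB6 and chr11:123062154-123062386 (minus strand) for HSPA8. Those of HSP90AA1 (chr14:102087095-102087157, minus strand), HSP90AB1 (chr6:44247753-44247868, plus strand) and the mitochondrial HSPD1 (chr2:197500043-197500090, minus strand) follow.
CHORDC1: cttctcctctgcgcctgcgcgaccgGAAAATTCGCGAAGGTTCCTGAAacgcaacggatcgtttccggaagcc
DNAJA1: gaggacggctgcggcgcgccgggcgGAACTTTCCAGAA
DNAJB6: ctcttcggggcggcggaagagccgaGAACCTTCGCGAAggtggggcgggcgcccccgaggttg
HSPA8: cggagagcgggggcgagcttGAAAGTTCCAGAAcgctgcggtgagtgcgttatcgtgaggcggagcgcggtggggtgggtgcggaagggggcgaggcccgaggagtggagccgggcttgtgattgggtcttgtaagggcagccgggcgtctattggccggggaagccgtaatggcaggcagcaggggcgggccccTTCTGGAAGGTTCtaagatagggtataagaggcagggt
HSP90AA1: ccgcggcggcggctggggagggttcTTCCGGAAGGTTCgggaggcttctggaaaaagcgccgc
HSP90AB1: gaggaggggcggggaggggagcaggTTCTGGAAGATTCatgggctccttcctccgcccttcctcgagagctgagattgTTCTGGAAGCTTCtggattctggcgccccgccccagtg
HSPD1: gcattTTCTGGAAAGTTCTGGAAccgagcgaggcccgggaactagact

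Of these 7 genes, CHORDC1, DNAJA1, DNAJB6 and HSPA8 fell and the others, HSP90AA1, HSP90AB1 and HSPD1, did not pass the threshold on the probe used. For comparison, 45.2% of the cytosolic and nuclear members and 17% of all measured genes were lower. BAG3, HSPH1, DNAJB5 and HSPA4L fell with neither form of the element in their windows. A link between the element and the falls was not tested. DNAJB1, which also fell, lacked the longer element in its 3 annotated windows but had the shorter one in 2 of them. The 250 bases before 1 of its starts (chr19:14518398-14518647, minus strand) hold it at 2 places, in capitals.
DNAJB1: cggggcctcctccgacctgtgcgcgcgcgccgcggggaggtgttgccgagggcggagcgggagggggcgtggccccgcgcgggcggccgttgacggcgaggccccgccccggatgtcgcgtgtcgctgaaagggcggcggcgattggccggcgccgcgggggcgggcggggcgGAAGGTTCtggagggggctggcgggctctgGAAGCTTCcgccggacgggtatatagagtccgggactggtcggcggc

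Among the cytosolic HSP70 genes 3 of 6 fell and none rose, or 2 of 5 without HSPA2, against 17% lower over all measured genes. HSPA8, the constitutive HSP70 (HSC70) that also uncoats clathrin vesicles, had log2 intensities of 14.07, 14.08 and 14.13 on the sorafenib arrays, against 14.33, 14.41 and 14.34 on the control arrays. All sorafenib values lay below all control values, with a log2 difference of -0.27 ± 0.06 (SE, limma adjusted p = 0.0167). A second HSPA8 probe gave -0.26 and also passed. HSPA14, an HSP70 that works at the ribosome, fell by 0.32, a call that held under 9 of the 18 alternative analyses, against 14 of 18 for HSPA8. Among these 18, the run on the deposited values in effect repeats the run without background correction. HSPA2, an HSP70 best known from the testis, had 5.85, 5.49 and 5.58 with sorafenib, against 6.15, 6.02 and 6.39 in control. It was not detected on any sorafenib array and was at least 1.27-fold lower there (fitted log2 difference -0.54, limma adjusted p = 0.0168).

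The heat-inducible pair HSPA1A and HSPA1B did not pass. HSPA1A had 6.57, 6.86 and 7.13 with sorafenib, against 6.81, 7.23 and 7.17 in control. These ranges overlapped (log2 difference -0.22 ± 0.17 SE, limma adjusted p = 0.36). HSPA1B had 12.13, 12.26 and 12.06 with sorafenib, against 12.48, 12.51 and 12.27 in control. Its groups were just apart and the difference of -0.27 ± 0.09 missed the threshold (limma adjusted p = 0.0587), which it passed under 10 of the 18 alternative analyses. The pair is nearly identical in sequence, so a probe for one may bind the transcript of the other and their values are uncertain as separate genes. The remaining HSP70, the testis-enriched HSPA1L, differed by -0.01 without passing.

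Of the HSP110 genes, whose products exchange nucleotide on HSP70 and pull apart aggregates with it, HSPH1 and HSPA4L fell and HSPA4 did not pass. HSPH1 had 12.69, 12.73 and 12.41 on the sorafenib arrays, against 12.99, 13.01 and 12.93 on the control arrays. The third sorafenib array was the lowest and no value reached the control range, for a difference of -0.36 ± 0.10 (SE, limma adjusted p = 0.0277). HSPA4L fell by 0.32 (both calls held under 14 of 18 alternatives), and HSPA4 stood at -0.12.

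HSP90, the chaperone that matures kinases and steroid receptors, has 2 cytosolic genes and neither passed on the probe used. HSP90AA1, the inducible form, had 14.18, 14.28 and 14.31 with sorafenib, against 14.41, 14.44 and 14.41 in control. Its sorafenib values all lay below control, with a difference of -0.17 ± 0.07 (limma adjusted p = 0.0894). A second HSP90AA1 probe passed at -0.27, and another, dimmer one did not at 0.31. HSP90AB1, the constitutive form, had 13.45, 13.37 and 13.38 with sorafenib, against 13.57, 13.44 and 13.62 in control. Its groups overlapped, and the 95% interval of its difference ran from -0.31 to 0.03.

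Cytosolic and nuclear J proteins gave 5 lower genes and 1 higher among 12 (41.7% and 8.33%, against 17% and 19.7% of all measured genes). DNAJB1, the HSP40 that partners HSP70 in refolding, had 10.79, 10.96 and 10.92 on the sorafenib arrays, against 11.58, 11.52 and 11.61 on the control arrays. The groups were far apart relative to their spread, and the fall was 1.60-fold (log2 -0.68 ± 0.07 SE, limma adjusted p = 0.000751). DNAJB5, a close relative of DNAJB1, had 6.07, 6.11 and 6.19 with sorafenib, against 6.84, 6.69 and 6.67 in control. It too was lower on every sorafenib array, by 1.52-fold (log2 -0.61 ± 0.08, limma adjusted p = 0.00134). Smaller falls were found for DNAJA1, a farnesylated J protein (-0.42), DNAJB6, which holds back aggregation of polyglutamine proteins (-0.38 and, on a second probe, -0.32), and DNAJC9, which also chaperones histones (-0.30, past the threshold under 12 of 18 alternatives).

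DNAJC12, a J protein that binds aromatic amino acid hydroxylases such as the phenylalanine hydroxylase of liver, was the only cytosolic member to rise. Its values were 7.33, 7.33 and 7.33 with sorafenib, against 6.54, 6.51 and 6.58 in control. The sorafenib arrays were nearly equal and well above control, for a rise of 1.73-fold (log2 0.79 ± 0.06 SE, limma adjusted p = 0.000221). The other 3 DNAJC12 probes were not detected on any control array and were at least 1.27-, 1.87- and 2.04-fold higher with sorafenib. They passed the detection filter only through the sorafenib arrays, so their direction is no independent support. The J proteins that did not pass were DNAJB2, which also binds ubiquitin (0.18), DNAJC7, which carries clients between HSP70 and HSP90 (0.14), the ribosome biogenesis factor DNAJC21 (-0.01), the splicing-associated DNAJC17 (-0.02) and DNAJC8 (-0.19), and DNAJA2, a relative of DNAJA1 (-0.24).

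The co-chaperones outside these families included 2 clear falls. BAG3, which exchanges nucleotide on HSP70 and routes its clients to autophagy, had 9.89, 9.93 and 9.92 with sorafenib, against 10.45, 10.43 and 10.50 in control. Both groups were tight and separate, and the fall was 1.46-fold (log2 -0.55 ± 0.06 SE, limma adjusted p = 0.000934). CHORDC1, an HSP90-binding protein, had 8.41, 8.17 and 8.33 with sorafenib, against 8.79, 8.82 and 9.00 in control. All its sorafenib values were lower, by 1.48-fold (log2 -0.57 ± 0.09, limma adjusted p = 0.00407). STIP1, the adaptor between HSP70 and HSP90 (-0.17), and HSPBP1, a nucleotide exchange factor (0.07), did not pass.

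The small heat shock proteins hold unfolded proteins without ATP, and 2 of 4 measured genes fell, against 17% of all measured genes. CRYAB, alpha B-crystallin, had 5.30, 5.42 and 5.87 with sorafenib, against 6.20, 6.18 and 6.31 in control. It was detected on no sorafenib array and was at least 1.31-fold lower (fitted log2 -0.70 ± 0.15, limma adjusted p = 0.0107). Both CRYAB and HSPA2 passed the detection filter only through the control arrays, and without them 13 of 29 cytosolic and nuclear members passed, 12 of them lower, with 2 of 5 HSP70 genes and 1 of 3 small heat shock protein genes lower. HSPB8, which works in a complex with BAG3, fell by 0.46 on the log2 scale and passed under 13 of 18 alternatives. HSPB1 (HSP27) had 13.04, 13.08 and 13.15 with sorafenib, against 13.00, 13.02 and 13.10 in control. Its groups overlapped at a difference of 0.05 ± 0.07 (limma adjusted p = 0.622, 95% interval -0.11 to 0.21). The muscle-enriched HSPB3 did not pass at -0.25.

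**Figure D3:**
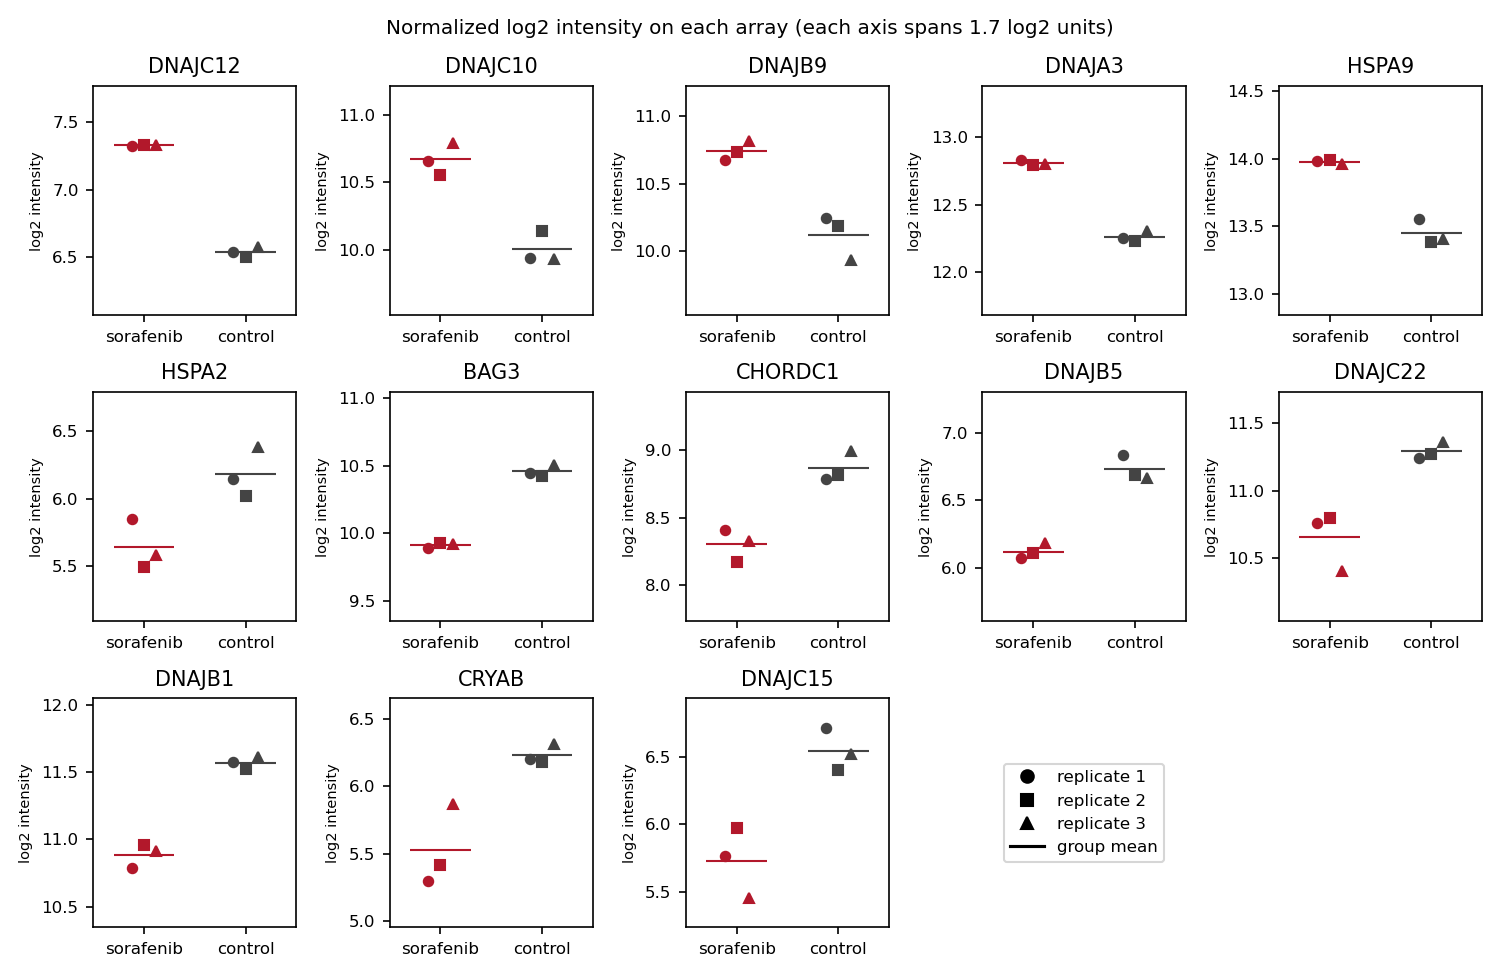
Normalized log2 intensity on each array, sorafenib left and control right, for the 13 members past the threshold with a log2 difference of at least 0.5 in size (bar, group mean of 3 arrays). Every vertical axis spans the same number of log2 units. In each panel all sorafenib values lie on one side of all control values, as for DNAJB1 (10.79 to 10.96 with sorafenib, 11.52 to 11.61 in control). The members were picked by their differences on these same arrays, so this separation adds no support to the calls.

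In the ER the 2 rises were both J proteins. DNAJC10 (ERdj5), which reduces disulfide bonds in proteins bound for degradation and counts among the protein disulfide isomerases, had 10.66, 10.55 and 10.79 with sorafenib, against 9.94, 10.14 and 9.93 in control. No value overlapped, and the rise was 1.59-fold (log2 0.67 ± 0.09 SE, limma adjusted p = 0.00224), with 0.50 on a second probe that also passed. DNAJB9 (ERdj4), which restrains the stress sensor IRE1 and helps degrade misfolded proteins, had 10.68, 10.74 and 10.82 with sorafenib, against 10.25, 10.19 and 9.93 in control. It was higher on every sorafenib array, by 1.54-fold (log2 0.62 ± 0.10, limma adjusted p = 0.0035).

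The central ER chaperones did not pass. HSPA5 (BiP), the HSP70 of the ER, had 8.79, 8.74 and 8.99 with sorafenib, against 8.68, 8.67 and 8.58 in control. Its sorafenib values were all just above control, and the difference of 0.20 ± 0.09 missed the threshold (limma adjusted p = 0.12, 95% interval -0.01 to 0.40) in the main analysis and in all 18 alternatives. HSP90B1 (GRP94), the ER form of HSP90, had 13.60, 13.62 and 13.66 with sorafenib, against 13.53, 13.63 and 13.46 in control. These overlapped at 0.09 ± 0.07 (limma adjusted p = 0.379).

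Both genes carry the ER stress element, CCAAT and CCACG set 9 bases apart, in their RefSeq windows, 2 of 55 members (3.64%) against 0.0916% of all genes. It was not found in the windows of the other ER members. The stretches at chr9:125241366-125241434 (minus strand) for HSPA5 and chr12:103930191-103930364 (plus strand) for HSP90B1 are shown as the ones whose genes stayed under the threshold, with the element in capitals on either strand.
HSPA5: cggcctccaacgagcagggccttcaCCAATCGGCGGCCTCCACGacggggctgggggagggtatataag
HSP90B1: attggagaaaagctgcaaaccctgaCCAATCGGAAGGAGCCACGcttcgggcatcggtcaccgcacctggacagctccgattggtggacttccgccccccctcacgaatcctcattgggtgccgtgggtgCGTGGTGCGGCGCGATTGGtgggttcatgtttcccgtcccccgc

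DNAJC10 had instead the 8 letters TGACGTGG of the unfolded protein response element, on the opposite strand, which stood in 0.927% of all genes' windows. The letters TGATGNAA of a CARE, an element bound by ATF4, were found in 1 member, the falling HSPA4L, and in 4.46% of all genes.

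DNAJC3 (p58IPK), a J protein of the ER lumen that also inhibits the kinase PERK, had 7.32, 7.30 and 7.20 with sorafenib, against 7.61, 7.79 and 7.49 in control. It fell on every sorafenib array, by 0.36 ± 0.09 on the log2 scale (limma adjusted p = 0.0248), but passed in only 11 of 18 alternatives. DNAJB12, a membrane J protein that works in ER-associated degradation, fell by 0.46 on its brightest probe while its other 3 probes gave 0.17, 0.05 and -0.17 and did not pass. The median over its 4 probes, -0.06, did not pass either. The remaining ER members did not pass, namely the J proteins DNAJC16 (0.22), DNAJC25 (0.17), DNAJC1 (0.10), DNAJB11, the abundant ERdj3 of the lumen (0.09), DNAJB14, a relative of DNAJB12 (0.00), and DNAJC14 (-0.14), and the HSP70-related HSPA13 (0.00).

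**Figure D4:**
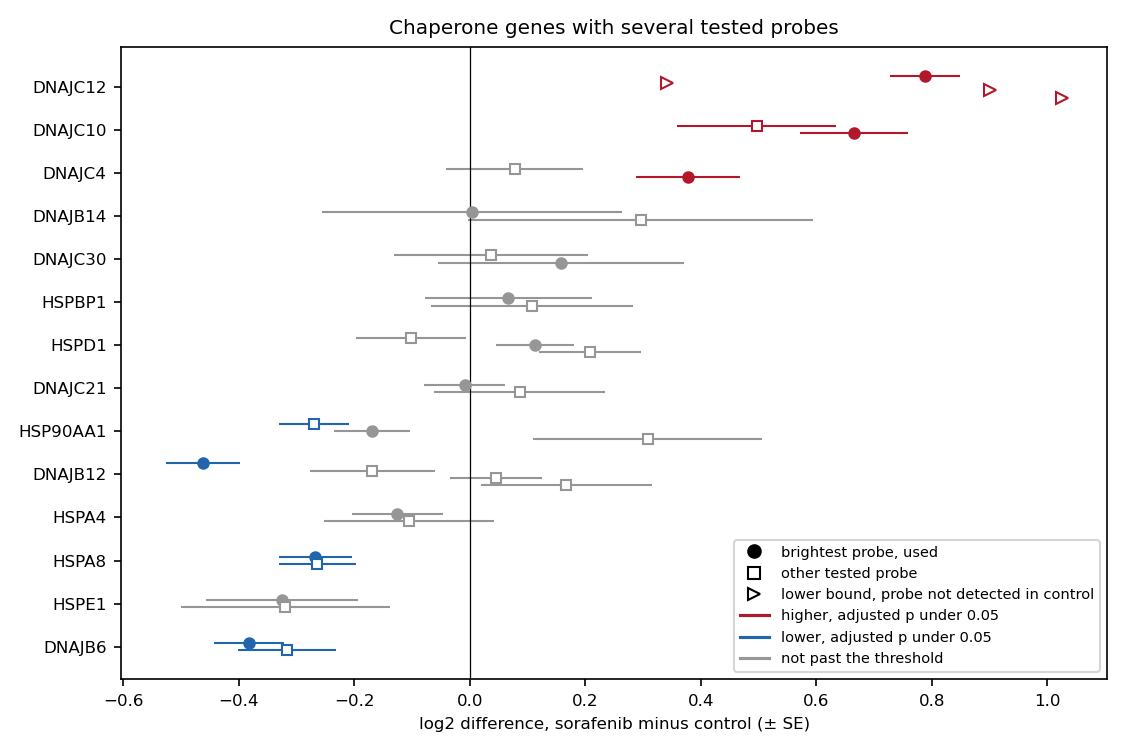
Log2 difference (sorafenib minus control) with its standard error for every tested probe of the 14 chaperone genes that had several (filled circle, the brightest probe, which stood for the gene, open square, the others). A triangle marks the lower bound of a probe not detected on any control array. The DNAJC12 probes all lie right of 0, at 0.79 for the brightest, whereas only the brightest of the 4 DNAJB12 probes passed, at -0.46. The DNAJC12 probes drawn as triangles passed the detection filter only through the sorafenib arrays.

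In mitochondria the HSP70 and its main J protein rose together. HSPA9 (mortalin), the matrix HSP70 that also pulls precursors through the import channel, had 13.98, 13.99 and 13.96 on the sorafenib arrays, against 13.55, 13.38 and 13.40 on the control arrays. The sorafenib values were tight and all above control, a rise of 1.44-fold (log2 0.53 ± 0.07 SE, limma adjusted p = 0.00183). DNAJA3 (TID1), the J protein that serves HSPA9 in folding, had 12.83, 12.80 and 12.80 with sorafenib, against 12.26, 12.23 and 12.31 in control. It too was separate on every array and rose 1.46-fold (log2 0.55 ± 0.06, limma adjusted p = 0.000937). Both passed under all 18 alternatives. None of the heat shock, ER stress, unfolded protein response or CARE letters were in the HSPA9 window, whose 250 bases before the start (chr5:138575402-138575651, minus strand) are shown for comparison with the cytosolic stretches.
HSPA9: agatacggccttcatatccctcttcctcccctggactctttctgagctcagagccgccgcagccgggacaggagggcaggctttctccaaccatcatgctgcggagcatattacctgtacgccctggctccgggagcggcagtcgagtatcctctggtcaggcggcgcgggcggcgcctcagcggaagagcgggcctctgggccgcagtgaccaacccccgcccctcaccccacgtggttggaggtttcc

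The 2 J proteins of the import motor moved in opposite directions. DNAJC19, which activates HSPA9 at the inner membrane channel, rose by 0.24 on the log2 scale and passed under 9 of 18 alternatives. DNAJC15, its close relative, which is also reported to restrain respiratory complex I, had 5.77, 5.97 and 5.45 with sorafenib, against 6.71, 6.40 and 6.52 in control. It was detected on 1 of 3 sorafenib arrays and on all control arrays, and its fitted difference was -0.82 ± 0.14 (limma adjusted p = 0.00569), with a range of -0.93 to -0.38 over the alternatives. DNAJC30, which assists ATP synthase (0.16), and DNAJC11, of the cristae-organizing complex (-0.03), did not pass.

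The chaperonin genes of the matrix did not pass. HSPD1 (HSP60), the folding chamber, had 14.36, 14.44 and 14.39 with sorafenib, against 14.23, 14.27 and 14.35 in control. The sorafenib values lay just above control, with a difference of 0.11 ± 0.07 (limma adjusted p = 0.236) and no pass on any of its 3 probes. HSPE1 (HSP10), its lid, had 11.55, 11.55 and 11.96 with sorafenib, against 11.94, 11.93 and 12.17 in control. The third sorafenib array lay inside the control range, and the difference of -0.32 ± 0.13 missed the threshold (limma adjusted p = 0.0995), which it passed under 6 of 18 alternatives. The 2 genes are neighbours on chromosome 2.

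Members placed elsewhere gave 5 of 8 past the threshold (62.5%, against 36.7% of all measured genes), 3 higher and 2 lower. Under the alternatives this count went as low as 2. DNAJC22, a membrane J protein whose Drosophila counterpart serves endocytosis, had 10.76, 10.80 and 10.40 with sorafenib, against 11.24, 11.27 and 11.36 in control. The third sorafenib array was the lowest and the groups were separate, for a fall of 1.55-fold (log2 -0.64 ± 0.11 SE, limma adjusted p = 0.00606). DNAJC5, the cysteine string protein of secretory vesicles, fell by 0.25 and passed under 7 of 18 alternatives. HSPBAP1, which binds HSPB1 and was taken in by its symbol, rose by 0.43, DNAJC4 by 0.38 and DNAJC27, a small GTPase with a J domain, by 0.34, the last of these past the threshold under 10 of 18 alternatives. A second DNAJC4 probe gave 0.08 and did not pass. DNAJC24, of diphthamide synthesis (0.13), DNAJC28 (0.04) and the endosomal DNAJC13 (-0.06) did not pass.

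The genes that work beside the chaperones were counted from 3 lists outside the symbol rule. For comparison, 36.7% of all measured genes passed, 19.7% higher and 17% lower. Of 28 measured genes of the cytosolic chaperonin, prefoldin and further HSP70 and HSP90 co-chaperones, 3 fell and none rose (10.7%, median -0.05). They were the prefoldin subunit PFDN1 (-0.34), the chaperonin subunit CCT4 (-0.27) and the HSP90-binding immunophilin FKBP4 (-0.21). Of 11 ER partners 2 rose and 2 fell (36.4% past the threshold, near the share of all genes). HYOU1, the nucleotide exchange factor and HSP110 relative of the ER, rose by 0.54, and the translocon subunit SEC61A1 by 0.30, while the secreted stress protein MANF fell by 0.42. Of 13 measured mitochondrial partners and proteases 6 rose and none fell (46.2%, median 0.21). The matrix protease LONP1 rose 1.89-fold (log2 0.92), GRPEL2, a nucleotide exchange factor of HSPA9, rose by 0.60 and TIMM44, which tethers HSPA9 to the import channel, by 0.40.

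The remaining 19 genes of the rule were not measured. They were the cytosolic and nuclear DNAJA4, DNAJB4, DNAJB7, DNAJB8, DNAJB13, DNAJC2, DNAJC6, HSF1, HSPA6, HSPB2, HSPB6, HSPB7 and HSPB9, the ER gene DNAJC18, and DNAJC5B, DNAJC5G, HSPA12A, HSPA12B and the readthrough gene DNAJC25-GNG10. Only HSPA6 and DNAJB4 were detected on any array.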

How the data were processed

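Per the file headers, the authors deposited the raw intensity and its detection p-value on every array for 47321 probes, from biotinylated cRNA on an Illumina expression BeadChip, and a table of log2 values. The deposited log2 values equalled log2 of the intensities after quantile normalization, to within 5e-07, and each column had a median of 6.79. They served as an alternative. Scanner software and slides are not given in these sources. Intensities were background-corrected by neqc (offset 16) and quantile-normalized in limma 3.58.1 (R 4.3.3). The 16909 probes with detection p under 0.01 on at least 3 of 6 arrays were fitted with lmFit and eBayes, two-sided and without a block, with Benjamini-Hochberg adjustment over all of them. Errors of differences are limma's standard errors, and the number of arrays limits the precision. Of the probes, 30112 carried 1 gene symbol in the platform annotation and 8 several. Fitting was tested on simulated data.

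A gene undetected on every array of a group has only a bound, written as "at least". It sets the mean of the brighter group against a floor for the other, per array the dimmest signal of a detected probe or, if brighter, the signal of the probe itself. The members, compartments and partner lists were chosen with earlier results of these data known. Values on each array are given for 20 reference genes fixed in that choice, except HSF1 and HSF2, which were not measured. They are also given for members past the threshold with a log2 difference of at least 0.5 in size. Other members are given by their difference, and of each partner list up to 3 genes. Promoter windows were RefSeq's (GRCh38.p14). Alternatives were other background corrections, normalizations, filters, variance models, probe rules, a replicate block and leaving out arrays.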

Additional observations from a re-analysis of the deposited data

How the results depend on the processing

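No called member changed sign under any alternative run for it. Of the 28, 13 passed under all 18 and 13 lost the call under at least 1. The other 2, CRYAB and DNAJC15, passed under the 17 run for them, since they leave the test when detection on all 6 arrays is required. Leaving out single arrays gave 18 to 25 members past the threshold, of which 11 to 17 were lower, and in the cytosol and nucleus 9 to 14 past it with 8 to 13 lower. Leaving out the second sorafenib array gave the lowest of these counts. Over all measured genes, leaving out single arrays gave 2708 to 3357 calls, against 3885 in the main analysis. Centring on the median of all probes gave 12 lower members, 9 of them cytosolic, in place of 19 and 14, and moved the median of all genes by 0.07; HSPA8, DNAJC9, HSPA14, HSPA4L, HSPB8, DNAJC3 and DNAJC5 lost their calls. Their differences stayed negative, for HSPA8 at -0.27 in both analyses and for DNAJC9 at -0.29 against -0.30, while the other 5 were smaller in size (DNAJC5 -0.13 against -0.25, for example), and the cytosolic median was -0.22 against -0.25. The replicate block gave 28 members past the threshold, 7 higher and 21 lower. Over the alternatives the ER had 2 or 3 members higher and 1 or 2 lower. Mitochondria had 2 or 3 higher and 0 to 2 lower. Same-numbered arrays deviated together with correlations of 0.0889, 0.101 and 0.252 for numbers 1, 2 and 3. Sorafenib array 1 correlated slightly better with control array 2 (0.0988), and sorafenib array 2 gave 0.0941 with control array 1. Arrays numbered 3 correlated negatively with all differently numbered arrays of the other group (-0.135, -0.148, -0.167 and -0.174). The arrays numbered 3 thus shared deviations, while numbers 1 and 2 were not told apart. Whether the numbers pair the samples stayed undecided, and the main analysis did not pair them. Of the partner lists, the cytosolic one had 0 to 6 genes past the threshold in place of 3, the ER one 2 to 7 in place of 4 and the mitochondrial one 4 to 8 in place of 6. The cause of these changes was not tested. Adding the run without the third array of both groups was decided after the data had been seen. CRYAB, HSPA2 and DNAJC15 lie near the detection limit, which limits their precision.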
